A study of Mus musculus with 3 samples.

Results

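The nuclear genome encodes most subunits of the respiratory chain and of ATP synthase. The genes described here were the 85 of 32285 annotated genes whose symbol begins with Ndufa, Ndufb, Ndufc, Ndufs, Ndufv, Uqcr, Cox4 to Cox8 or Atp5, or is Sdha, Sdhb, Sdhc or Sdhd, without Ndufaf genes and without pseudogene symbols. By symbol, 38 belonged to complex I, 4 to complex II, 8 to complex III, 18 to complex IV and 17 to complex V. They were measured in 3 single-cell RNA libraries, all from 1 group: quadriceps muscle of wild-type C57BL/6 mice that had a volumetric muscle loss defect filled with polycaprolactone (PCL) particulate for 6 weeks, harvested along with the fibrotic implant. Volumetric muscle loss removes more muscle than regeneration can replace, and PCL is a slowly degrading polyester. Dead cells were depleted, and immune cells (CD45+) were parted from stromal cells (CD45-) with magnetic beads before both were mixed 1:1, so the proportions of cell types are set by the mixing. There was no uninjured or implant-free group, the animals' age was not given, and the labels did not say whether the replicates came from separate mice, so p-values cover the spread among the 3 libraries and nothing wider. Comparisons were therefore made between cell types and between macrophage states, within the same libraries.

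The chain moves electrons from NADH through complex I, or from succinate through complex II, to ubiquinone, on through complex III to cytochrome c, and through complex IV to oxygen. Complexes I, III and IV pump protons, and complex V, ATP synthase, uses the proton gradient to make ATP. The mitochondrial genome encodes a few core subunits of complexes I, III, IV and V, while complex II is entirely nuclear-encoded. Skeletal muscle is known for dense mitochondria and for muscle forms of several complex IV subunits, and neutrophils for few mitochondria and a reliance on glycolysis.

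The 3 libraries held 136519688, 192348779 and 104482261 unique molecular identifiers (UMIs, counted transcript molecules) in 6068, 8643 and 4996 barcodes, of which 5658, 7691 and 4606 were kept. Between 10 and 13 barcodes were shared by any 2 libraries. Cells were clustered without the respiratory chain genes, and clusters were named from marker genes as "X-like". Counts were summed per library and class for the 13 classes with at least 20 cells in every library, among them 9872 fibroblast-like, 3171 macrophage-like, 924 neutrophil-like, 863 endothelial-like, 672 monocyte-like, 333 mural-like and 244 muscle fibre-like barcodes. A call means an adjusted p (Benjamini-Hochberg, over 13624 genes) below 0.05 in edgeR's quasi-likelihood test with the library as a block. Of the 85 genes, 83 passed the filter on low counts, all but Cox7b2 and Cox8c. Levels are CPM (counts scaled to a fixed total) after TMM scaling, given for replicates 1, 2 and 3 in that order.

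The summed share of a class's UMIs that came from the 85 genes spanned a wide range, with muscle fibre-like barcodes at the top and neutrophil-like cells at the bottom. It was 7.12%, 6.70% and 6.30% in muscle fibre-like barcodes (mean 6.71% ± 0.413, SD, n = 3) and 0.287%, 0.284% and 0.305% in neutrophil-like cells (0.292% ± 0.0116). The other 11 classes lay between 0.914% ± 0.0776 in tenocyte-like cells and 1.59% ± 0.0842 in cDC1-like cells (a conventional dendritic cell type). Macrophage-like cells stood at 1.34%, 1.40% and 1.39%, above fibroblast-like cells at 1.06%, 1.02% and 1.06% and monocyte-like cells at 1.15%, 1.13% and 1.21%, with no overlap between libraries. Among neighbours in the order, the library values of cDC1-like and cDC2-like cells (1.48% ± 0.0759) overlapped, as did those of mural-like cells (1.42% ± 0.174) with macrophage-like cells (1.38% ± 0.0327). The 5 complexes kept this order between muscle fibre-like, macrophage-like, fibroblast-like and neutrophil-like cells. Complex I took 2.09%, 0.399%, 0.333% and 0.0779% of the UMIs in these classes in turn, and complex V took 2.18%, 0.437%, 0.325% and 0.0947%. Complex II, the succinate dehydrogenase that also works in the citric acid cycle, was the smallest, with 0.0848%, 0.0359%, 0.0227% and 0.00718%.

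**Figure D1:**
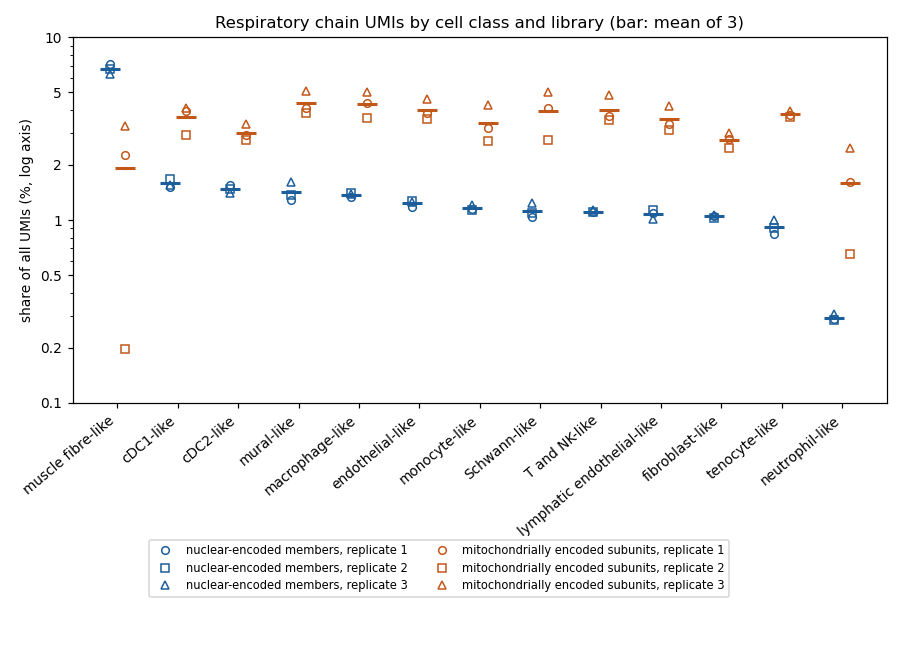
Share of all UMIs (%, log axis) taken by the 85 nuclear-encoded genes (blue) and by the mitochondrially encoded subunits (orange) in 13 cell classes, 1 symbol per library and a bar for the mean. The nuclear-encoded share runs from 6.71% in muscle fibre-like to 0.292% in neutrophil-like cells, while the mitochondrially encoded share is 2.27%, 0.197% and 3.29% in the 3 muscle fibre-like libraries.

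The subunits that the mitochondrial genome itself encodes did not follow the same order. They took 2.27%, 0.197% and 3.29% of UMIs in muscle fibre-like barcodes, and 4.37%, 3.62% and 5.01% in macrophage-like cells. In replicate 2 the muscle fibre-like value was far below the other libraries, and the ratio of nuclear-encoded to mitochondrially encoded UMIs was 3.14, 33.9 and 1.91 in muscle fibre-like barcodes. In the other 12 classes its mean lay between 0.240 and 0.496. Muscle fibre-like barcodes held a median of 1527.5 UMIs, against 26603 UMIs per fibroblast-like cell and 12348 per macrophage-like cell. The part of this low depth in the values was not tested.

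Gene by gene, 78 of the 83 tested genes had their highest mean level in muscle fibre-like barcodes, and 64 had their lowest in neutrophil-like cells. The 5 exceptions at the top were highest in mural-like (3 genes), cDC2-like (1) and macrophage-like cells (1).

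**Figure D2:**
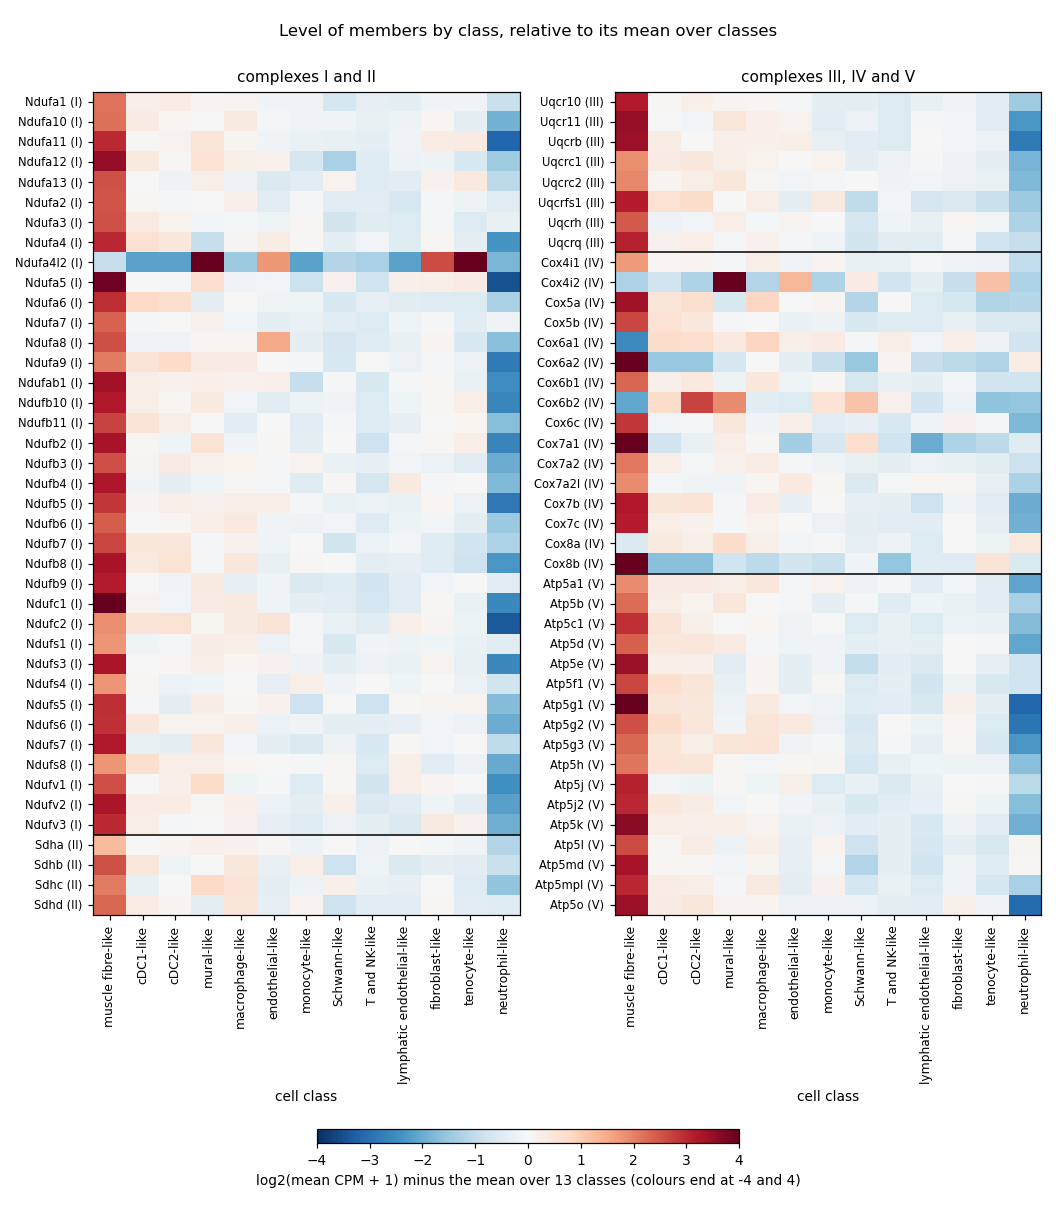
Level of the tested genes in 13 classes (1 gene is not shown), as log2(mean CPM + 1) minus the gene's mean over classes (colours end at -4 and 4). Rows are genes grouped by complex; the muscle fibre-like column is red in nearly every row and the neutrophil-like column blue, while Ndufa4l2, Cox4i2, Cox6a2, Cox6b2, Cox7a1 and Cox8b each depart from the other members of their complex.

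Muscle fibre-like barcodes were set against the mean of the other 12 classes. There 78 of 83 genes were higher and 2 lower, in a comparison where 20.8% of all tested genes were higher and 26.4% lower. Their median log2 difference was 2.91, against -0.84 over all genes. All 4 complex II genes, all 8 of complex III, all 17 of complex V, 37 of 38 of complex I and 12 of 16 of complex IV were higher. Ndufc1, a small membrane subunit of complex I, had 2538, 1551 and 2327 CPM in muscle fibre-like barcodes, against 148, 148 and 152 CPM in macrophage-like and 120, 115 and 124 CPM in fibroblast-like cells. Against the mean of all other classes it rose by a log2 difference of 4.57 ± 0.10 (SE). Atp5g1, which encodes the c subunit of the ATP synthase ring, rose by 4.42 ± 0.09. The smallest rises were those of Sdha, the flavoprotein of complex II (1.38), of Cox4i1 (1.86) and of Ndufs4 (1.95).

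The 2 lower genes lay in complex IV, where some subunits exist in a general form and a muscle form. Cox6a1 and Cox8a are general forms, and Cox6a2, Cox7a1 and Cox8b are the forms known from heart and skeletal muscle. Cox6a1 had 37.5, 5.31 and 43.6 CPM in muscle fibre-like barcodes, against 303, 309 and 325 CPM in macrophage-like cells, and fell by 2.69 on the log2 scale against the mean of the other classes (SE 0.23, edgeR adjusted p = 4.03e-12). Cox8a had 225, 133 and 289 CPM, against 363, 398 and 375 CPM in macrophage-like cells, and fell by 0.60 (SE 0.17, adjusted p = 0.00353). Both were lower in all 3 libraries than in any macrophage-like library, but the Cox8a call was lost without replicate 1 (adjusted p = 0.062), without replicate 2 (adjusted p = 0.16) and with DESeq2 (adjusted p = 0.054).

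The muscle forms made up most of their subunit's UMIs in these barcodes and little elsewhere. Cox6a2 was 98.3%, 99.7% and 97.6% of Cox6a UMIs (1387 of 1410), Cox8b 92.1%, 93.4% and 89.1% of Cox8 UMIs (1713 of 1877), and Cox7a1 61.8%, 56.4% and 65.0% of Cox7a UMIs (1056 of 1704). Cox7a thus remained mixed, with the general form Cox7a2 at 1008, 712 and 864 CPM in the same barcodes. Since several classes held no UMI of Cox6a2 or Cox8b, no fitted fold against the mean of the other classes is given for them. These counts come from the 3′ ends of transcripts, so a long transcript is not counted more often than a short one.

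The start regions of the general and muscle forms are shown because these pairs separate muscle fibre-like barcodes from all other classes. The sequences are RefSeq's, in the build GRCm38.p6, from 250 bases before to 50 bases after the start site, in the direction of transcription. Capitals mark matches on either strand to CAGCTG, an E-box of the kind bound by myogenic factors, or to CCGGAAG, an ETS-type site.
Cox8b: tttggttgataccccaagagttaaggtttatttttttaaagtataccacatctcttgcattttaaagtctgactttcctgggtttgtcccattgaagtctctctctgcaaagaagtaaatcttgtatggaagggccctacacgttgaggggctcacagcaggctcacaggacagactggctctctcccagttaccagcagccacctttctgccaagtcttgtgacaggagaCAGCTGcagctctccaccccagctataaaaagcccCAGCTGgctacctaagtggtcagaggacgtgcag
Cox8a: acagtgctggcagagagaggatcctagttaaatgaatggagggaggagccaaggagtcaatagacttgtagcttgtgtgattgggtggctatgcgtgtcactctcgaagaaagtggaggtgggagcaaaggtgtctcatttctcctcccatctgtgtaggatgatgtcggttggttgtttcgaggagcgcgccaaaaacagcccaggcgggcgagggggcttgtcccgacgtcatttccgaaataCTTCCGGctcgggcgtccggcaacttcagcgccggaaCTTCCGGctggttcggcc
Cox7a1: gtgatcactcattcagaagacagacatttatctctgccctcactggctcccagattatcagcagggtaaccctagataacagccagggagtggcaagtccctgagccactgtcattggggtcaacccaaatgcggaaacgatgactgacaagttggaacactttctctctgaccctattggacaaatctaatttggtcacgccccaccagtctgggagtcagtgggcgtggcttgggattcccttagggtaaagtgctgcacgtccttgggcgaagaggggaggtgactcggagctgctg
Cox7a2: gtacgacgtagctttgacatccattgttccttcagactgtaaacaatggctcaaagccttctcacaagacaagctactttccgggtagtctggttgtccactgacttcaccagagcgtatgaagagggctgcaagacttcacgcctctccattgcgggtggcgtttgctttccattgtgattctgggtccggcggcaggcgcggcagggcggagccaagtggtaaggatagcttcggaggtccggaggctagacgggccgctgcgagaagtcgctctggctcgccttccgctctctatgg
Cox8b lies at chr7:140900397-140900696 on the minus strand and Cox8a at chr19:7217567-7217866 on the minus strand. Cox7a1 lies at chr7:30183921-30184220 on the plus strand and Cox7a2 at chr9:79759804-79760103 on the minus strand. The Cox8b window held 2 E-box matches, whose first bases are at -19 and 17 from the start site (the start itself is 1), and the Cox8a window held 2 ETS matches, at -5 and 33. Cox7a1 and Cox7a2 held no match to these motifs, to the MEF2-like motif (CTA and TAG with any 4 bases between) or to the NRF1-like motif (GCGCA and GCGC with any base between). The muscle forms had fewer CpG dinucleotides, 2 for Cox8b and 7 for Cox7a1, than the general forms, 19 for Cox8a and 20 for Cox7a2.

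Promoter windows were found for 68 of the 85 genes. The NRF1-like motif was present in 17 of these 68 genes (25%), against 4.60% of all 32851 promoter windows, and the ETS motif in 17 (25%), against 8.86%. The E-box was present in 6 (8.82%), against 16.3%, and the MEF2-like motif in 1 (1.47%), against 3.69%. Counted per window, as all windows were, the shares in the 73 windows of these genes were 24.7% (NRF1-like), 23.3% (ETS), 8.22% (E-box) and 1.37% (MEF2-like). The windows of the respiratory chain genes held a median of 19 CpG dinucleotides, against 7 over all windows. These matches describe letters in a window and say nothing about binding.

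**Figure D3:**
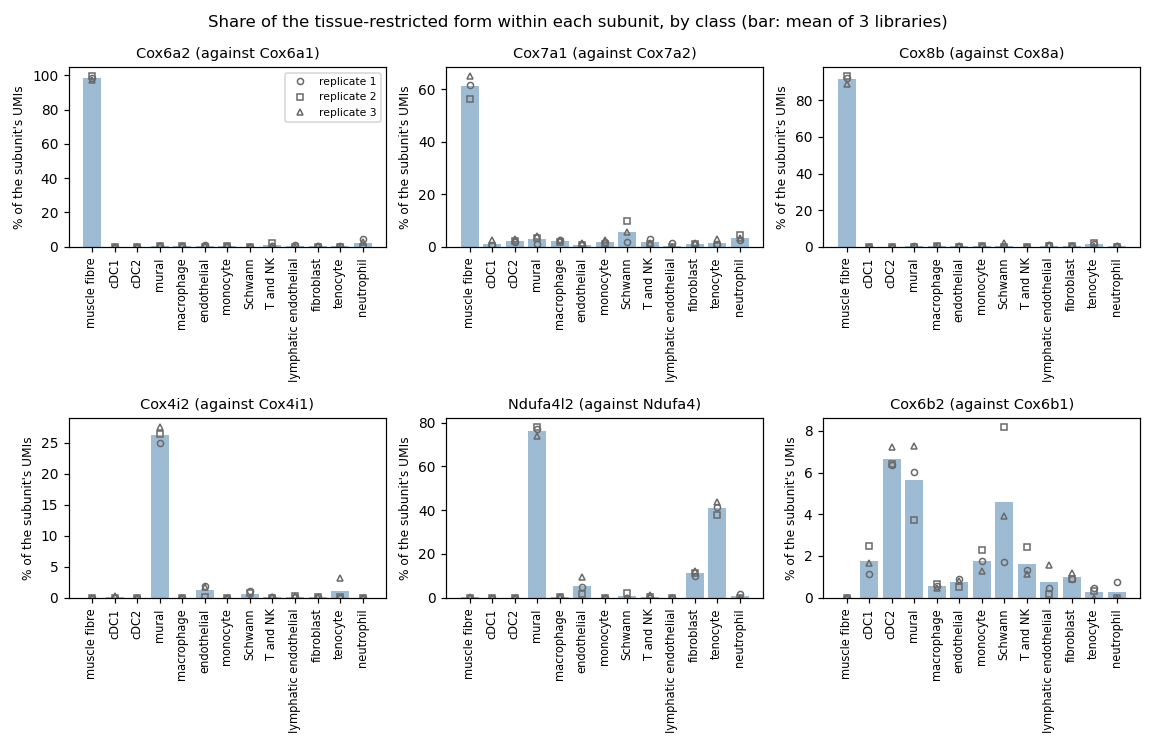
Share (%) of a tissue-restricted form in all UMIs of its subunit, by class, with 1 symbol per library and a bar for the mean of 3 libraries. Cox6a2, Cox7a1 and Cox8b stand out in muscle fibre-like barcodes, Cox4i2 in mural-like cells, and Ndufa4l2 in mural-like, tenocyte-like and fibroblast-like cells.

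Mural-like cells, the pericytes and smooth muscle around vessels, were marked by 2 other alternative forms. Cox4i2, the alternative to the general subunit Cox4i1, had 130, 178 and 184 CPM in mural-like cells, against 7.27, 0.461 and 7.23 CPM in endothelial-like and 0.283, 0.182 and 0.279 CPM in fibroblast-like cells. It made up 24.9%, 26.5% and 27.6% of Cox4i UMIs in mural-like cells (896 of 3387). Cox4i1 itself was at 392, 492 and 483 CPM in mural-like and 392, 483 and 422 CPM in endothelial-like cells, so its levels overlapped.

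Ndufa4l2 is a paralogue of Ndufa4, a protein counted with complex I by its symbol but known as a subunit of complex IV. Ndufa4l2 had 294, 336 and 361 CPM in mural-like cells, against 22.5, 25.6 and 28.4 CPM in fibroblast-like cells, and made up 77.1%, 78.1% and 73.9% of the UMIs of this pair in mural-like cells (1795 of 2348). Ndufa4 had 87.1, 94.5 and 127 CPM in mural-like cells, against 208, 201 and 204 CPM in fibroblast-like cells, and fell by 1.00 on the log2 scale against the mean of the other classes (SE 0.14, edgeR adjusted p = 2.56e-07). The libraries of mural-like and fibroblast-like cells did not overlap for either gene. Sdhc, a membrane anchor of complex II, was 0.84 ± 0.11 (SE) higher in mural-like cells on the same log2 scale. Cox5a fell by 0.68 and Sdhd, the second anchor of complex II, by 0.43. Over all members 29 were higher and 6 lower, where 34.6% of all genes were higher and 15.1% lower. This split turned to 10 higher and 25 lower in an alternative without clusters of very low depth. That alternative left out the whole neutrophil-like class (median 5107 UMIs) but kept the muscle fibre-like barcodes (median 1527.5 UMIs). The shares of all genes above belong to the fit with every class.

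Ndufa4l2 was also present in tenocyte-like and fibroblast-like cells and at or near 0 in the immune classes. In tenocyte-like cells it was 41.4%, 37.6% and 43.9% of the pair's UMIs (399 of 992), and in fibroblast-like cells 9.77%, 11.3% and 12.2% (6780 of 61144). In endothelial-like cells it varied between libraries, with 4.82%, 1.56% and 9.22%. Macrophage-like cells held 0.162%, 0.425% and 0.282% (27 of 10714), and no UMI was found in monocyte-like (0 of 1892) or cDC1-like cells (0 of 705). At 3 counts a library, this allows shares of up to 0.286%, 0.785% and 0.649% in monocyte-like and 1.99%, 0.962% and 1.24% in cDC1-like cells, for counting error only. Within the fibroblast-like class the share differed between clusters. It was 25.3% in the cluster led by Eln, Hs3st5 and Ccn3 and 16.0% in that led by Myoc, Frmpd4 and Inmt, but 3.44% in that led by Pcolce2, Opcml and Ugdh and 0.600% in that led by Opcml, Nav3 and Smpd3. The libraries of the clusters at 25.3% and at 0.600% did not overlap, whereas the cluster led by Sfrp2, C4b and Fbln7 was at 27.6% and 27.8% in replicates 1 and 2 and at 11.1% in replicate 3, which held 22 of its cells.

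**Figure D4:**
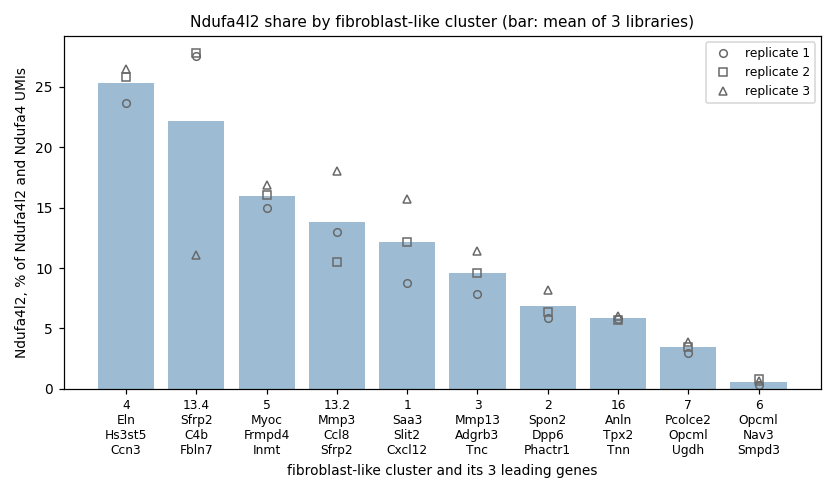
Ndufa4l2 as a share (%) of Ndufa4l2 and Ndufa4 UMIs in the 10 fibroblast-like clusters, each named by its number and 3 leading genes, with 1 symbol per library and a bar for the mean. The share runs from 25.3% in the cluster led by Eln to 0.600% in that led by Opcml, Nav3 and Smpd3.

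Macrophage-like cells were next set against fibroblast-like cells, the 2 largest classes. There, 34 of the 83 genes rose and 4 fell, while 28.3% of all tested genes rose and 42.7% fell. The median log2 difference of the respiratory chain genes was 0.25, against -0.22 over all genes. By complex, 12 of 38 genes were higher in complex I, 3 of 4 in complex II, 4 of 8 in complex III, 8 of 16 in complex IV and 7 of 17 in complex V. The number of calls depended on which library TMM took as its reference: with replicate 3 of the tenocyte-like cells in place of replicate 1 of the cDC2-like cells, 56 genes were higher and 2 lower. With these 2 classes alone in the model, which changes both the reference and the sums in the fit, 59 were higher and 5 lower. Without replicate 1, 2 or 3 the higher genes numbered 38, 24 or 23. The distance between the median of these genes and that of all genes was 0.47, and lay between 0.45 and 0.69 in the 16 alternatives.

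Cox5a, a subunit of complex IV that exists in 1 form, was higher in macrophage-like cells. It had 318, 358 and 348 CPM in macrophage-like cells, against 123, 117 and 112 CPM in fibroblast-like cells, a log2 difference of 1.54 ± 0.14 (SE, edgeR adjusted p = 3.05e-12). Ndufb8, an accessory subunit of complex I, had 164, 169 and 183 CPM in macrophage-like cells and 91.1, 89.2 and 91.1 CPM in the fibroblast-like class (log2 0.93 ± 0.13). Sdhb, the iron-sulfur subunit of complex II, had 86.8, 89.5 and 93.3 CPM in macrophage-like and 52.3, 49.2 and 50.1 CPM in fibroblast-like cells (log2 0.83 ± 0.14). The libraries of the 2 classes did not overlap for any of these genes. Sdhc and Sdhd rose with Sdhb, at log2 0.54 and 0.46, while the catalytic Sdha, at 0.25, was not called. In complex III, Uqcrfs1, the Rieske iron-sulfur protein, rose by 0.83.

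Of the muscle forms, Cox7a1 had 6.01, 4.69 and 6.96 CPM in macrophage-like cells, against 1.49, 1.69 and 2.24 CPM in fibroblast-like cells (log2 1.67 ± 0.22, edgeR adjusted p = 2.68e-08). Per 100 UMIs of muscle markers there were 8.71, 15.3 and 10.4 Cox7a1 UMIs in macrophage-like cells, against 0.608, 0.412 and 0.622 in muscle fibre-like barcodes, a ratio that was higher in macrophage-like cells in every library. Cox6a2 was higher by a log2 difference of 2.35 ± 0.38 on 45, 19 and 28 UMIs in macrophage-like cells, which were 2.72, 6.91 and 2.30 per 100 muscle marker UMIs, against 0.814, 0.729 and 0.678 in muscle fibre-like barcodes. The source of the Cox7a1 and Cox6a2 UMIs in macrophage-like cells was not tested. Lower in macrophage-like cells were Ndufa4l2, with 0.334, 0.892 and 0.607 CPM against 22.5, 25.6 and 28.4 CPM in fibroblast-like cells, and the low Cox8b. Ndufb11 (-0.46) and Ndufa5 (-0.35) were also called lower, but both calls were lost with the other TMM reference (log2 -0.17 and -0.07).

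Neutrophil-like cells were also set against macrophage-like cells. Of 83 genes, 71 were lower, where 35.6% of all tested genes were lower. No gene was called higher, where 27.4% of all genes were, and in the alternatives the count of higher genes lay between 0 and 4. The median log2 difference was -1.73 (-1.69 with genes at 0 in a class set at their bound), against -0.33 over all genes, and its distance from that of all genes lay between -1.82 and -1.27 in the alternatives. All 4 genes of complex II and all 8 of complex III were lower, with 34 of 38 in complex I, 15 of 17 in complex V and 10 of 16 in complex IV.

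Ndufc2, a membrane subunit of complex I, had 9.42, 5.16 and 8.05 CPM in neutrophil-like cells, against 108, 112 and 112 CPM in macrophage-like cells, and fell by 3.80 on the log2 scale (SE 0.26, edgeR adjusted p = 1.52e-14). Atp5g1 had 12.8, 11.6 and 16.1 CPM in neutrophil-like and 154, 172 and 157 CPM in macrophage-like cells, a fall of 3.62 (SE 0.23). Its sister genes Atp5g2 and Atp5g3, which encode the same mature c subunit, fell by 3.35 and 2.81. The libraries of the 2 classes did not overlap for Ndufc2 or Atp5g1. Cox8a departed from this pattern, with 485, 412 and 374 CPM in neutrophil-like and 363, 398 and 375 CPM in macrophage-like cells, which overlapped. Against the mean of the other classes Cox8a was 0.44 ± 0.13 (SE) higher in neutrophil-like cells (edgeR adjusted p = 0.00371), but with library totals in place of TMM its sign turned to -0.46. Neutrophil-like cells also had few ribosomal protein transcripts: per 100 UMIs of cytosolic ribosomal proteins there were 24.3 ± 2.11 UMIs of the respiratory chain genes, against 20.4, 20.2 and 19.4 in macrophage-like cells. Median depth was 5107 UMIs per neutrophil-like cell, and its part in these values was not tested.

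Monocyte-like cells had lower levels than macrophage-like cells for 33 of 83 genes and a higher level for 1, where 20.7% of all genes were lower and 15.6% higher. The median log2 difference was -0.35 (-0.33 with genes at 0 in a class set at their bound), against -0.15 over all genes. Ndufab1, the mitochondrial acyl carrier protein bound in complex I, had 44.4, 30.6 and 42.1 CPM in monocyte-like cells, against 84.3, 82.9 and 86.3 CPM in macrophage-like cells, and fell by 1.10 on the log2 scale (SE 0.15, edgeR adjusted p = 3e-07). Ndufa12 fell by 0.92 and Ndufs5 by 0.86, both accessory subunits of complex I. The libraries of the 2 classes did not overlap for Ndufab1, Ndufa12 or Ndufs5. In complex II, Sdhc fell by 0.73, Sdha by 0.37 and Sdhd by 0.36. The gene that was higher was Cox6b2, known as the testis form of Cox6b, with 5.48, 6.42 and 3.95 CPM in monocyte-like and 2.09, 2.45 and 1.99 CPM in macrophage-like cells; that call was lost without replicate 1 (edgeR adjusted p = 0.11). Without replicate 1, 2 or 3 the lower genes numbered 12, 19 or 16. For 2 clusters with 78 of the 672 monocyte-like cells, led by Chil3 and Ly6c2 but also by Cd177, neutrophil-like was the second-best name. Without them, an alternative chosen after seeing the data, 25 genes were lower and 1 higher.

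Endothelial-like cells were set against fibroblast-like cells as the second stromal class. Here 10 genes were higher and 11 lower of 83, where 22.8% of all genes were higher and 31.0% lower, and the median of -0.01 lay near that of all genes (-0.10). Ndufa8, an accessory subunit of complex I, had 185, 195 and 201 CPM in endothelial-like cells, against 77.0, 71.2 and 72.4 CPM in fibroblast-like cells (log2 1.40 ± 0.14, edgeR adjusted p = 5.61e-11). The low Cox4i2, at the values given above, was 4.24 ± 0.53 higher in endothelial-like cells (adjusted p = 1.4e-07), with 0.461 CPM in replicate 2 as its lowest library. Cox5a was 0.72 ± 0.14 higher, with 182, 210 and 186 CPM in endothelial-like cells. Ndufa13 had 125, 125 and 134 CPM in endothelial-like and 219, 213 and 216 CPM in fibroblast-like cells and fell by 0.76. Ndufv3 fell by 0.70. The libraries of the 2 classes did not overlap for Ndufa8, Cox4i2, Cox5a, Ndufa13 or Ndufv3. Ndufa4l2, with 11.3, 3.92 and 25.3 CPM in endothelial-like cells, fell by 1.08 (SE 0.28, adjusted p = 0.00172), but its libraries overlapped those of fibroblast-like cells. The split between higher and lower depended on scaling: with library totals alone 32 genes were higher and 4 lower, and without 1 replicate between 9 and 11 genes were called in all.

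Cox6b2 had a raised share in cDC2-like cells, where it was 6.38%, 6.40% and 7.24% of Cox6b UMIs (51 of 769), against 0.563%, 0.650% and 0.480% in macrophage-like cells (108 of 19773). Mural-like cells had a similar range of shares, 6.01%, 3.71% and 7.29%. Against the mean of the other classes Cox6b2 was also called higher in cDC1-like, Schwann-like and monocyte-like cells (edgeR adjusted p = 0.0324, 0.0192 and 0.0127). A compared class held no UMI of Cox6b2, so no fitted fold against that mean is given. Uqcrfs1 was at 103, 113 and 107 CPM in cDC2-like and 82.8, 116 and 104 CPM in cDC1-like cells, which overlapped. The remaining classes were each set against the mean of the others. The muscle fibre-like class is part of that mean and raises it, while the neutrophil-like class, where part of it, lowers it. The dendritic classes were above it, with 38 genes higher and 0 lower in cDC1-like cells (23.8% and 14.8% of all genes) and 26 higher and 2 lower in cDC2-like cells (22.0% and 14.1%). Macrophage-like cells had 24 higher and 2 lower (31.3% and 15.4%). Fibroblast-like cells had 5 higher and 17 lower (46.4% and 14.4%), endothelial-like cells 9 and 21 (35.2% and 14.4%), and monocyte-like cells 4 and 25 (27.7% and 18.1%). Lower calls outnumbered higher ones in T and NK-like cells, with 0 higher and 55 lower (27.2% and 11.9%), in tenocyte-like cells with 6 and 42 (32.4% and 14.7%), in lymphatic endothelial-like cells with 1 and 42 (30.8% and 15.6%) and in Schwann-like cells with 1 and 39 (23.8% and 12.9%). Neutrophil-like cells had 1 higher, Cox8a, and 72 lower (28.9% and 33.2%). Over the 11 classes other than muscle fibre-like and mural-like, 115 calls were higher and 317 lower, and without the muscle fibre-like class 306 were higher and 196 lower. Leaving that class out turned the split to 38 higher and 3 lower in monocyte-like, 27 and 9 in fibroblast-like and 21 and 10 in endothelial-like cells. It also gave 3 higher and 15 lower in T and NK-like cells, and 70 higher with 0 lower in the macrophage-like class. The TMM reference changed too, from replicate 1 of the cDC2-like to replicate 1 of the macrophage-like cells. The shares of all genes above belong to the fit with the muscle fibre-like class, so counts without that class cannot be set against them. Over the 15 alternatives, macrophage-like cells had 14 to 70 higher and 0 to 18 lower. Their members' median relative to all genes lay between -0.0451 and 0.367. Monocyte-like cells had 2 to 38 higher and 3 to 47 lower, fibroblast-like 1 to 27 and 9 to 48, and endothelial-like 3 to 21 and 10 to 56. In cDC1-like cells 17 to 68 were higher and 0 to 2 lower, and in cDC2-like cells 20 to 59 and 0 to 5.

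Macrophage-like cells were divided further into subclusters, of which 8 had at least 20 cells in every library; 78 of the 85 genes were tested there, among 9611 genes. Each subcluster was set against the mean of the others. Subcluster M6, with the highest Mmp12 and Mt3, had the most higher calls: 70 genes were higher, where 15.5% of all genes were, with a median log2 difference of 0.45. The calls covered 33 of 37 complex I genes, 3 of 4 of complex II, 7 of 8 of complex III, 10 of 12 of complex IV and all 17 of complex V. The 85 genes took 1.54%, 1.90% and 1.72% of UMIs in M6 (1.72% ± 0.182, SD, n = 3). Per 100 UMIs of cytosolic ribosomal proteins, M6 was not the highest. These genes had 22.1 ± 1.16 UMIs in M6, 24.0 ± 0.733 in M8 and 23.0 ± 0.305 in M3 (SD). The other subclusters lay between 18.4 in M4 and 20.7 in M5. Ndufa13 had 198, 344 and 233 CPM in M6, against 168, 192 and 190 CPM in M1 and 137, 126 and 152 CPM in M4, and its log2 difference from the mean of the others was 0.75 ± 0.12 (SE). Atp5g1 rose by 0.73, Ndufa5 by 0.70, Cox5b by 0.68 and Ndufs8, a core subunit of complex I, by 0.67. Sdha, Ndufs1 and Ndufs4 were not called, with log2 differences of -0.06, -0.03 and 0.03. Replicate 2 was the highest M6 library for Ndufa13, Atp5g1 and Cox5b and held 42 of the 240 M6 cells. The count of higher genes lay between 58 and 73 in the alternatives.

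**Figure D5:**
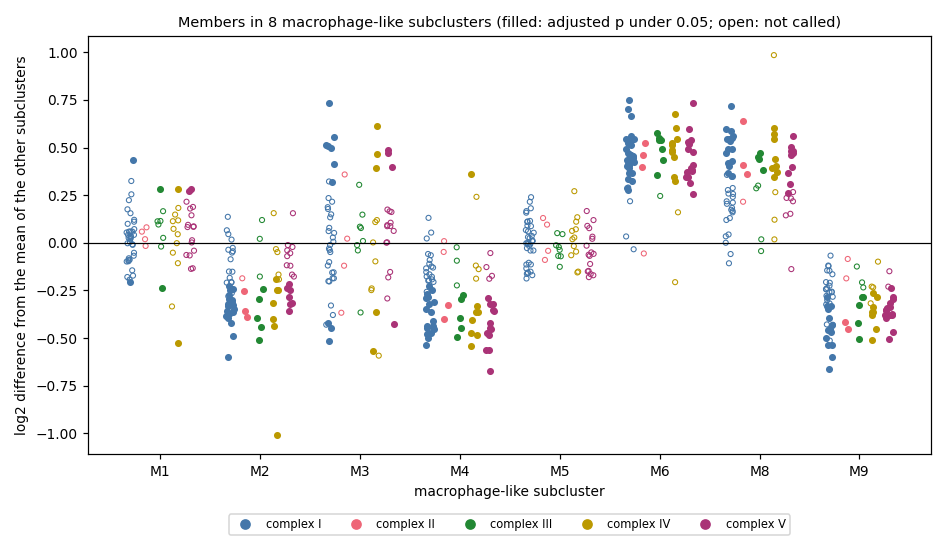
Log2 difference of each tested gene from the mean of the other macrophage-like subclusters, by subcluster and complex; filled points passed an edgeR adjusted p of 0.05 and open points did not. Points of M6 and M8 lie mostly above 0, those of M2, M4 and M9 mostly below it, and Cox7a2l is the lowest point of M2.

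Subcluster M8, with high C1q genes and Nr1h3 and a median of 6604 UMIs, had 41 higher genes (10.6% of all genes) and a median of 0.35. The count of higher genes was 17 without replicate 3 and lay between 17 and 44 in all alternatives run. Leaving out clusters of very low depth kept 18 M8 cells in replicate 2, too few for M8 to be tested in that alternative. Cox5a had 513, 542 and 550 CPM in M8, against 267, 293 and 276 CPM in M4, which did not overlap. Ndufs6 rose by 0.72, Sdhd by 0.64 and Cox5a by 0.60. Without replicate 3 the calls for Ndufv3 and Ndufa10 were lost (edgeR adjusted p = 0.069 and 0.12). M4, which had C1q genes with Mrc1, Stab1 and Pdgfc, had 45 lower genes (18.8% of all genes) and 1 higher (21.9%). Atp5g1 had 119, 86.3 and 105 CPM in M4, against 181, 347 and 242 CPM in M6, and fell by 0.67. Atp5b, the catalytic beta subunit of ATP synthase, fell by 0.56. In M2, with high Ccl24 and little Mmp12, 42 genes were lower (20.7% of all genes), and in M9, with S100a8 and S100a9, 44 (8.41%). Without replicate 3 the lower genes numbered 27 in M4, 22 in M2 and 22 in M9, and over all alternatives run they lay between 27 and 54 in M4, 22 and 54 in M2, and 22 and 48 in M9. M1, with Mmp12 and Ccl24, had 5 higher and 3 lower (14.4% and 12.9%), and M3, of low depth with a median of 2139 UMIs and collagen transcripts, 13 higher and 6 lower (11.7% and 8.82%). In M5, with C1q genes and Gpnmb, no gene was called in either direction (8.73% and 5.2% of all genes), and 0 to 5 were lower in the alternatives. M9 had a high median doublet score of 0.0791, and its part in the values was not tested. Doublet removal at 1.6% per 1000 barcodes kept 17 M9 cells in replicate 1, too few for M9 to be tested in that alternative.

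Cox7a2l followed its own pattern across these states. It takes part in joining complexes III and IV into supercomplexes, and C57BL/6 mice are known to carry a shortened form of it. It had 94.6, 95.6 and 103 CPM in M2 and 124, 121 and 148 CPM in M1, against 213, 216 and 245 CPM in M4. The libraries of M2, M1 and M4 did not overlap. M3, which also held Ccl24, had 234, 208 and 273 CPM, and M8 had 267, 200 and 287 CPM. Its log2 difference from the mean of the others was -1.01 ± 0.09 in M2, -0.53 ± 0.08 in M1 and 0.36 ± 0.08 in M4 (SE, edgeR adjusted p = 1.19e-10, 6.36e-06 and 0.000276), and it was also higher in M3 (0.47 ± 0.10) and in M8 (0.57 ± 0.10). In M4 it was the member that was higher while 45 others were lower.

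Other mitochondrial genes were read from lists of related functions. In muscle fibre-like barcodes, where 20.8% of all genes were higher, all 20 genes of pyruvate oxidation and the citric acid cycle were higher, as were 72 of 78 mitochondrial ribosomal genes and 76 of 79 cytosolic ribosomal genes. Of 13 mitochondrially encoded subunits 1 was lower there (26.4% of all genes). Between macrophage-like and fibroblast-like cells, 23 of 78 mitochondrial ribosomal genes were higher and 10 lower, 6 of 46 assembly factors were higher and 19 lower, and 64 of 79 cytosolic ribosomal genes were lower. All tested genes were higher in 28.3% and lower in 42.7% there, so the 23 of 78 and the 19 of 46 are near the shares of all genes. Ucp2, an inner membrane carrier of the uncoupling protein family, was at 970, 892 and 931 CPM in macrophage-like and 5.0, 2.66 and 5.08 CPM in fibroblast-like cells (log2 7.84 ± 0.45). Slc25a4, an ADP/ATP carrier of muscle, fell by 2.08. In neutrophil-like against macrophage-like cells, 69 of 78 mitochondrial ribosomal genes, 18 of 20 citric acid cycle genes and 75 of 79 cytosolic ribosomal genes were lower (35.6% of all genes). In monocyte-like against macrophage-like cells 44 of 78 mitochondrial ribosomal genes were lower (20.7% of all genes), and 17 of 79 cytosolic ribosomal genes were higher (15.6%). In M6, where 15.5% of all genes were higher, 37 of 78 mitochondrial and 73 of 78 cytosolic ribosomal genes were higher, and none of the 13 mitochondrially encoded subunits was called.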

How the data were processed

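Each library was a 10x Genomics 3′ (v3.1) droplet library. The deposited matrices held UMI counts per gene and barcode, made by the authors with Cell Ranger, version 7.0.0 per the file headers and 6.1.2 per the submitters' processing notes; the genome build and annotation were not given in the sources used here. Kept barcodes had a minimum of 500 UMIs and 200 genes and a maximum of 20% mitochondrial UMIs, and doublets were removed at 0.8% per 1000 barcodes (295, 598 and 200). Cells were clustered with scanpy 1.11.5 and Leiden (resolution 1.0, macrophage-like cells again at 0.8), leaving out 355 genes (members, lists and mitochondrially encoded genes); 608 cells in 11 clusters stayed unnamed. A cluster was named when at least 3 markers of a class were each detected in at least 25% of its cells. Its marker score (relative level times the share of markers detected) also had to reach 0.15 and 1.5 times that of the next class. Its leading genes could not hold more markers of another class. Clusters of low depth with no marker of the class among their leading genes stayed unnamed. The unnamed clusters passed the marker count and failed another of these rules. UMI sums per library and class were tested with edgeR 4.0.16 (TMM, filterByExpr, library as block, all classes in 1 model); DESeq2 1.42.0 was an alternative. Same-numbered sums came from the same library, which is where the pairing comes from. On simulated counts, 84.0% of genes set at log2 1 and 23.4% at 0.5 were recovered for macrophage-like against fibroblast-like cells (12335 genes). There all classes shared 1 expression profile without a library effect, and the changed genes were drawn from the better counted ones. The rates therefore leave out the differences in composition between the real classes. Named genes were the 5 with the largest called difference in each direction, and not all of them are printed above. Others were named by role or for an exception, after their values were seen. The members and lists were chosen with earlier results of these data known. UMI intervals cover counting error only. The single values of 1 member are not reported here; it stays in the counts and sums.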

Additional observations from a re-analysis of the deposited data

Results flagged for a closer look

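Cox6a2 UMIs appeared in cells that enter none of the comparisons. In an unnamed cluster of 33 cells led by Grm8, Siglech, Mctp2, Hrh1 and Ccr9, 82 of 194 Cox6a UMIs were of the muscle form Cox6a2 (42.3%, exact 95% binomial interval 35.2% to 49.6%, counting error only), and 10 of the 33 cells held at least 1. This was flagged because the cells lie outside the tested classes and their share was above that of every class but muscle fibre-like; in macrophage-like cells Cox6a2 was 0.615%, 0.681% and 0.474% of Cox6a UMIs. The difference was not tested.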

How the results depend on the processing

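Among 172 named gene differences, 2459 values were recomputed: 2239 kept direction and side of the threshold, 210 lost the call and 10 changed sign. Asking also for an absolute log2 difference of at least 1 left 5 calls for macrophage-like against fibroblast-like cells, 2 for monocyte-like against macrophage-like, 4 for mural-like, 4 for endothelial-like against fibroblast-like, 79 over the other classes and 1 over the subclusters. For macrophage-like against fibroblast-like cells, where 38 genes were called, at most 10% mitochondrial UMIs gave 58, at least 1000 genes per cell 58, doublet removal at 1.6% 58 and a model of these 2 classes 64. Each of these 3 filters left the Schwann-like class with under 20 cells in a library, so it dropped out, and TMM then took replicate 3 of the tenocyte-like cells as its reference. Setting that reference alone, an alternative chosen after seeing the data, also gave 58. Endothelial-like against fibroblast-like cells (21 calls) gave 36 with library totals, 13 with no filter on low counts and 34 with only these classes; mural-like cells (35) gave 21 with no filter on low counts. Leaving out 1 replicate gave 12 to 20 for monocyte-like against macrophage-like (34), 9 to 11 for endothelial-like against fibroblast-like, and 162 to 222 over the subclusters (270). With no replicate block the counts were 37, 71, 28 and 20 for macrophage-like, neutrophil-like, monocyte-like and endothelial-like cells against their partners. The other TMM reference moved the median log2 difference of all genes by 0.28 for macrophage-like against fibroblast-like cells, and library totals moved it by -0.90 for neutrophil-like against macrophage-like cells; relative to all genes, the members' median in the neutrophil-like comparison lay between -1.82 and -1.27.

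As a mean over cells of the share per cell, the members' share was 5.82% in muscle fibre-like, 1.45% in cDC1-like, 1.39% in cDC2-like, 1.33% in endothelial-like, 1.31% in macrophage-like, 1.10% in monocyte-like, 0.974% in T and NK-like and 0.996% in fibroblast-like cells, and 1.34%, 1.19%, 1.32%, 1.10%, 1.34%, 1.57%, 1.57% and 1.11% in M1, M2, M3, M4, M5, M6, M8 and M9. With mitochondrially encoded genes left out of the total it was 1.44% in macrophage-like, 1.16% in T and NK-like and 1.08% in fibroblast-like cells, and 1.47%, 1.31%, 1.52%, 1.27%, 1.44%, 1.80%, 1.73% and 1.22% in M1, M2, M3, M4, M5, M6, M8 and M9. Without the muscle fibre-like class the sign changed for Ndufs5 in cDC2-like (0.0153), Cox6a1 in fibroblast-like (-0.0128) and Ndufb9 in macrophage-like cells (0.0288). Clusters of very low depth included the neutrophil-like class but not the muscle fibre-like barcodes. Without those clusters the sign changed for Atp5g2 in endothelial-like (-0.00188) and for Ndufa11 (-0.0127) and Ndufa5 (-0.12) in fibroblast-like cells. The sign also changed for Ndufa5 (-0.0439), Ndufa11 (-0.0426) and Ndufb10 (-0.0203) in tenocyte-like cells, each against the mean of the others. With library totals it changed for Cox8a in neutrophil-like cells (-0.46). The cause of the other changes was not tested. Schwann-like sums rested on 20 to 22 cells per library; the part of depth in the calls was not tested.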
